A study of Mus musculus with 8 samples.

Results

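Axon guidance ligands and receptors were examined as a set of 47 genes in EGFP-positive cells that had been sorted out of dissected vertebral columns of mouse embryos at E12.5. The set was defined by name, with no use of their measured values, and holds 17 genes of the Eph and ephrin family, 18 of the semaphorin and plexin family, 6 of the Slit and Robo family and 6 of the netrin family, out of 16465 genes with a named probe on the array. EGFP was expressed from the locus of Bapx1 (current symbol Nkx3-2), a homeobox gene active in sclerotome and in early cartilage. In the group labelled null (4 arrays), embryos were homozygous for an allele with EGFP inserted behind the start codon of Bapx1 in place of a short stretch of its coding sequence. In the group labelled wildtype (4 arrays), embryos carried EGFP behind an intact reading frame, translated from an internal ribosome entry site placed 3′ of the coding sequence. Both groups were of mixed C57BL/6J and 129 background and both carried the EGFP reporter, but in the genotypes given, the null embryos held 2 copies of their reporter allele and the wildtype embryos 1. Reporter copies and the position of EGFP in the transcript thus differed between the groups, and their effect on the choice of sorted cells and that of genotype cannot be told apart. The sources used here do not say if an array holds RNA of 1 embryo or of several, so p-values measure the spread between these samples only.

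The 4 families share a logic of surface receptors that read secreted or membrane-bound ligands and steer growing axons or migrating cells. Ephrins are tethered to the membrane, either by a lipid anchor (class A) or by a transmembrane segment (class B), and their Eph receptor tyrosine kinases signal on contact between cells, with ephrins of class B also signalling backward into the cell that bears them. Class 3 semaphorins are secreted and bind neuropilins that form complexes with plexins, Slits are secreted repellents read by Robo receptors, and netrins are read by Dcc, Unc5 receptors and neogenin. In the developing trunk, ephrins of class B and class 3 semaphorins of the caudal sclerotome are known to keep motor axons and neural crest cells to its rostral part, and the same families act in blood vessels, muscle and cartilage.

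Each array held 45281 probes, of which 41% to 45.8% were detected above background. Levels are given as log2 of the background-corrected and quantile-normalized intensity, and a difference is the mean of the null-labelled arrays minus that of the wildtype-labelled arrays. The targeted gene did not follow the labels as a loss of transcript. Nkx3-2 (ILMN_2687592) had levels of 5.45, 7.49, 6.59 and 7.55 on null-labelled replicates 1 to 4 and was detected on all 4, against 4.42, 4.46, 4.48 and 4.84 on wildtype-labelled replicates 1 to 4, where it was detected on 0 (at least 3.67-fold higher in null-labelled cells, limma, adjusted p = 0.0435). The sources used here do not place this probe relative to the inserted EGFP, so it does not check the labels, and groups are therefore named by their labels throughout. Cartilage markers were lower on the null-labelled arrays, with summed normalized levels on the linear scale of 17570 to 22655 there and 31842 to 38998 on the wildtype-labelled arrays (0 of 11 measured markers above 0, 5 called lower). Null-labelled replicate 1 and wildtype-labelled replicate 2 stood apart, with mean correlations of 0.972 and 0.969 to the other arrays of their own groups. Null-labelled replicate 1 was the only array with a higher mean correlation to the other group (0.976) than to its own. Calls of genes of the set that rest on these arrays are given with and without them, as are most changes of direction.

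Of the 47 genes, 34 were measured, by 67 probes that were detected (detection p under 0.05) on at least 4 of the 8 arrays. Of the matched probes of the set, 61 were detected on all 8 arrays, 17 on 1 to 7 and 24 on 0, and 32 genes had a probe detected on all 8. Epha4, Sema4d, Plxna1, Slit1 and Dcc had matched probes but none that passed. Epha2, Efna2, Efna3, Sema3d and Plxna4 had a probe that could not be told from other dim probes by its values, and the array addresses sharing those values were detected on at most 1 array. No probe was annotated to Ephb2, Robo3 or Ntn1, the founding netrin, which are not analysed here. Several member probes report the same gene and are not replicates of each other, so each gene is represented by its probe of highest mean level unless a probe is named.

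Efnb1 was the single gene of the set that passed the test by its representative probe, and it was higher in null-labelled cells. A second gene, Robo2, passed by another of its probes and was lower. Thus 1 of 34 genes was called higher, against 0.386% of all 19965 probes tested, and 0 were called lower, against 0.396% of all probes (limma, Benjamini-Hochberg adjusted p under 0.05). By probe, 2 of 67 were called, against 0.781% of all probes. At an unadjusted p under 0.05 stood 12 of 34 genes (35.3%), 6 in each direction, against 21.7% of all probes. The levels of the 2 genotypes did not overlap for 6 of 34 genes and for 13 of 67 probes, against 10.8% of all probes. The median difference of the 34 genes was 0.07, against -0.04 for all probes, and the median size of a difference was 0.25, against 0.20. Without null-labelled replicate 1, 8 of 34 genes were called, against 16% of all probes. Of these, Ephb1, Ephb4, Efnb1 and Neo1 were higher and Efna4, Efnb3, Sema3a and Robo2 lower. The same 8 were called when wildtype-labelled replicate 2 was left out as well, against 20.3% of all probes. When that array alone was left out, the 1 gene called was Ephb1, and Efnb1 was not, against 0.862% of all probes. Leaving out any other single array gave 0.

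Directions depended on the scaling of the arrays. With quantile normalization 19 of the 34 differences were above 0. With median centring the median of all probes moved to 0.19 and 26 differences were above 0, of which 19 were above that median. When arrays were scaled by their median absolute deviation, the median of all probes moved to -0.26 and 5 differences were above 0, while 11 were above that median. The 5 were Epha5, Ephb1, Efna1, Plxna3 and Plxnb1. The shift under this scaling was larger for bright probes. Efna5, at 12.13 to 12.52 over all arrays, moved from 0.19 to -1.06. Epha5, at 4.50 to 6.68, moved from 0.79 to 0.8. The median of all probes is thus no common reference for bright and dim probes under this scaling.

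**Figure D1:**
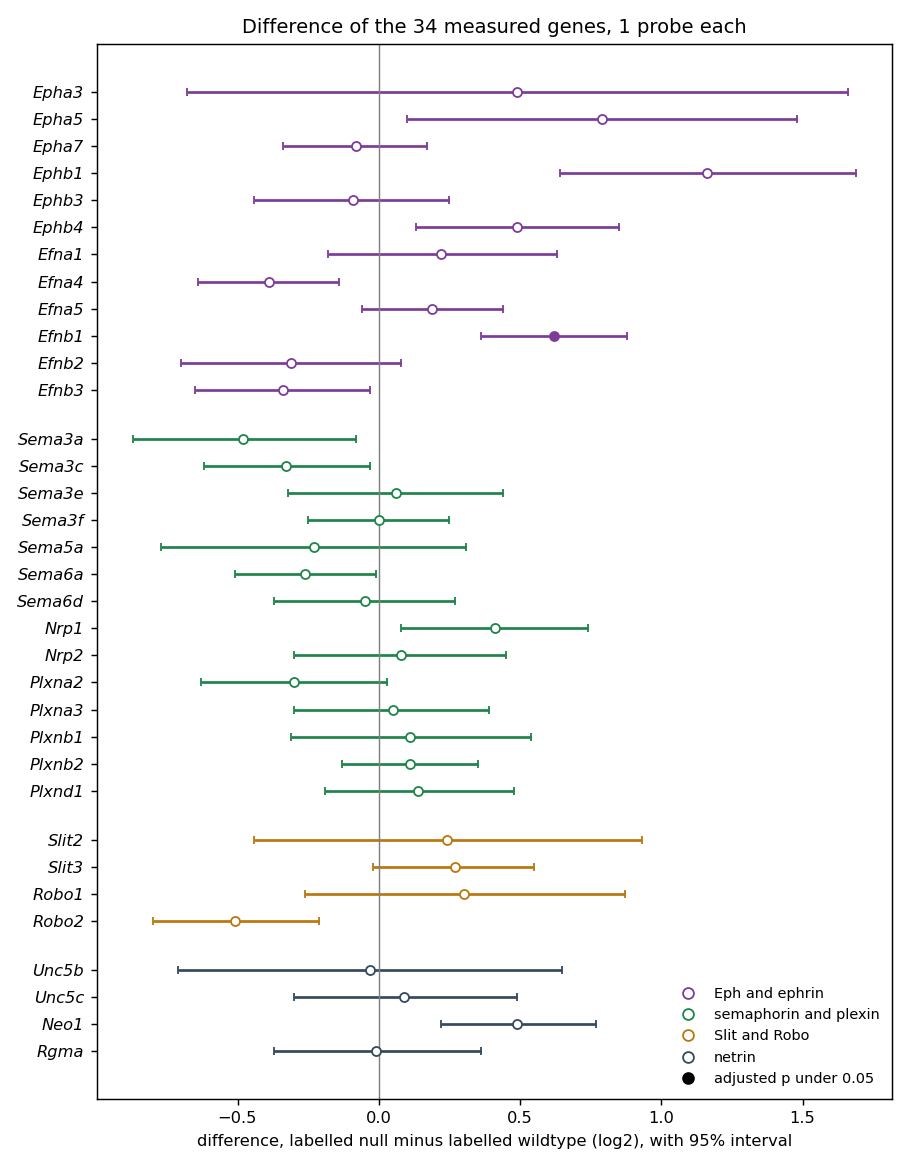
Difference in level (log2, null-labelled minus wildtype-labelled arrays, horizontal axis) of the 34 measured genes, 1 probe each, by family, with the 95% interval of the moderated fit. The filled point passed the adjusted threshold. Efnb1 stands at 0.62, Ephb1 lies farthest to the right at 1.16 and Robo2 farthest to the left at -0.51. Under scaling by the median absolute deviation 29 of the 34 differences were below 0.

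Summed levels of markers of several other cell types differed between the groups. Sclerotome markers summed to 7922 to 8619 on the null-labelled arrays and 9930 to 10954 on the wildtype-labelled arrays. Of 8 measured, 2 were called lower, Uncx (-1.59, limma, adjusted p = 0.0254) and Pax1 (-1.09, adjusted p = 0.0358). Nkx3-2, the targeted gene, was called higher, and 3 of the 8 had a difference above 0. Foxc2, the brightest, differed by -0.45 (adjusted p = 0.0981). Of 12 measured neuron markers 11 had a difference above 0 and 0 were called, with summed levels of 4068 to 6614 on the null-labelled arrays and 1895 to 3327 on the wildtype-labelled arrays, while Nefl and Snap25 were detected on 0 arrays. All 8 measured endothelial markers had a difference above 0 and 1 was called, with sums of 1370 to 2206 on the null-labelled arrays and 678 to 1230 on the wildtype-labelled arrays, and Tie1 was detected on 0 arrays. Wildtype-labelled replicate 2 had the lowest sum of both lists. For neural crest and Schwann cells the sums were 1726 to 2029 in null-labelled cells and 1176 to 1324 in wildtype-labelled cells, but the 3 measured members were split. Ngfr, which made up most of each sum, was called higher (0.82, limma, adjusted p = 0.0149). Fabp7 differed by 0.71 without a call, and Sox10, the defining marker of the list, differed by -0.64 (adjusted p = 0.108). Skeletal muscle markers summed to 1129 to 2957 in null-labelled cells, highest on replicate 1, and to 584 to 1172 in wildtype-labelled cells. Of 9 meningeal markers 8 had a difference above 0 and 3 were called higher (Vtn 2.24, Slc22a6 1.99 and Aldh1a1 1.86). Their sums overlapped, at 40114 to 45779 in null-labelled cells and 39307 to 45522 in wildtype-labelled cells. Most of each sum was Igf2, which stood at 14.92 to 15.27 (log2) over all arrays and differed by -0.08, so the sums say little about the other markers. Notochord markers summed to 256 to 348 in null-labelled cells and to 687 to 817 in wildtype-labelled cells. Only 1 of 3 was called, Foxa1 (-1.71), which made up most of each sum. Krt8 differed by -0.68 (limma, adjusted p = 0.149) and Krt18 by 0.05, and Shh and Noto were detected on 0 arrays. Neural progenitor markers had overlapping sums, of 722 to 1081 in null-labelled cells and 1045 to 1594 in wildtype-labelled cells. Of 5 measured, 2 were called lower, Nkx6-1 and Nkx2-2, and the other 3 were above 0, while Sox1, Pax6 and Olig2 were detected on 0 arrays. The part of these cells in the differences of guidance genes was not tested, and in such bulk samples fewer cells of a type and less RNA per cell cannot be told apart.

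Among the Eph receptors, 6 genes were measured and 4 of their 6 differences were above 0 with quantile normalization, but none was called. Ephb1, a receptor of class B ephrins, had the largest difference of the set. Its levels were 8.28, 8.68, 8.36 and 8.60 on null-labelled replicates 1 to 4, against 7.66, 6.56, 7.46 and 7.58 on wildtype-labelled replicates 1 to 4. Every null-labelled array lay above every wildtype-labelled one, and wildtype-labelled replicate 2 was the lowest. In the deposited, not normalized intensities the same probe (ILMN_2672903) read 210, 518, 379 and 507 on the null-labelled arrays and 192, 60.9, 137 and 110 on the wildtype-labelled arrays. The difference of 1.16 ± 0.23 (SE, n = 4 each, 2.24-fold) fell short of the threshold (limma, adjusted p = 0.0545). It was 0.91 without wildtype-labelled replicate 2 (adjusted p = 0.0262) and 1.23 without null-labelled replicate 1 (adjusted p = 0.0201).

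**Figure D2:**
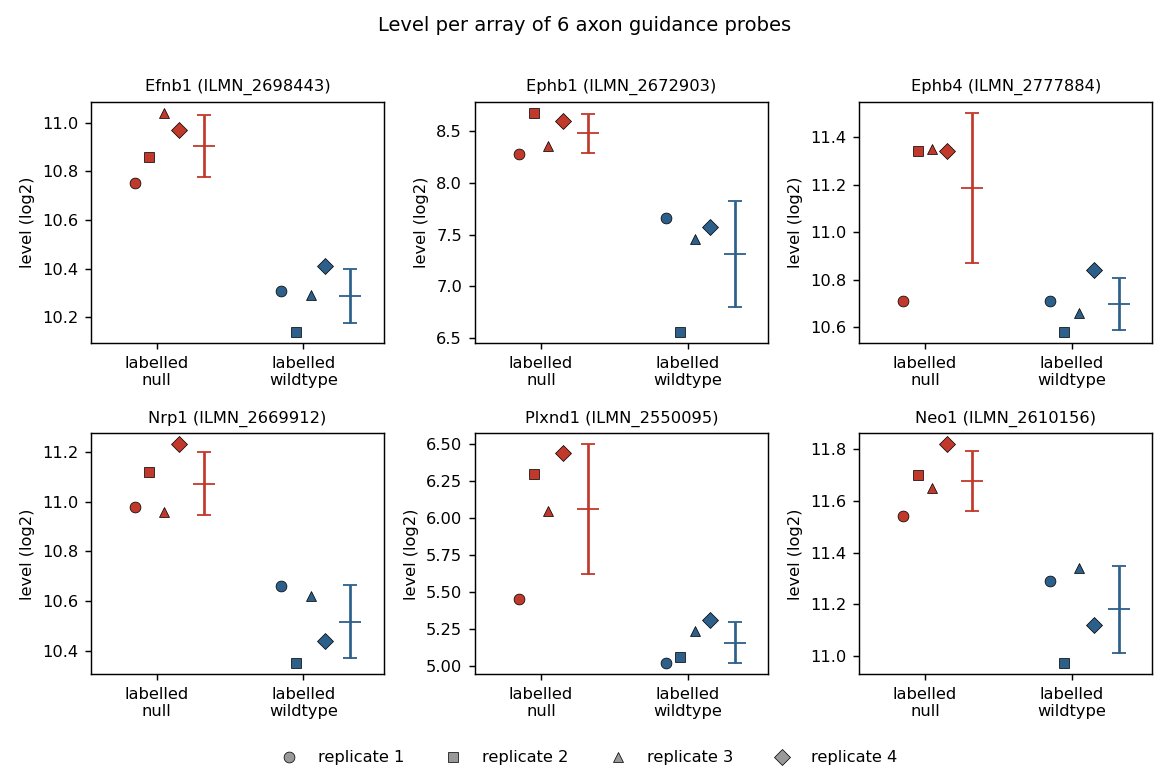
Level (log2, vertical axis, a different range in each panel) of 6 probes on each array, null-labelled arrays at left in red and wildtype-labelled arrays at right in blue, with a marker shape per replicate and bars for mean and SD (n = 4 each). The groups do not overlap in the panels of Efnb1, Ephb1, Nrp1, Plxnd1 and Neo1, and null-labelled replicate 1 of Ephb4 (10.71) lies among the wildtype-labelled arrays. Nrp1 and Plxnd1 are shown by ILMN_2669912 and ILMN_2550095, which are not their brightest probes. On the brightest probe of Plxnd1 (ILMN_1214608) the groups overlap. All 6 probes shown had a difference above 0 with quantile normalization. Under scaling by the median absolute deviation the differences of Efnb1, Ephb4, Nrp1 and Neo1 were below 0.

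Ephb4, the receptor of ephrin-B2 that marks veins in the embryo, was measured by 3 probes that disagreed. The brightest (ILMN_2777884) had levels of 10.71, 11.34, 11.35 and 11.34 in null-labelled cells and 10.71, 10.58, 10.66 and 10.84 in wildtype-labelled cells. Null-labelled replicates 2, 3 and 4 lay above all other arrays and replicate 1 lay among the wildtype-labelled arrays. The difference was 0.49 ± 0.16 (SE, limma, adjusted p = 0.145), 0.65 without null-labelled replicate 1 (adjusted p = 0.00774) and -0.48 under scaling by the median absolute deviation. A second probe (ILMN_2973206) showed the same pattern, with 6.35 on null-labelled replicate 1 and 7.04 to 7.14 on the other null-labelled arrays, against 5.86 to 6.54 on the wildtype-labelled arrays. Its difference was 0.68 ± 0.21 (adjusted p = 0.125, or 0.0135 without null-labelled replicate 1). The third (ILMN_1230479) differed by -0.06 ± 0.11 (95% interval -0.31 to 0.20). Among the 8 endothelial markers, Cdh5 and Tek also had their lowest null-labelled level on replicate 1 (7.55 and 6.90, others 8.15 to 9.55 and 7.46 to 8.33). The other 6 had it on replicate 3 or 4, and the part of such cells in the level of Ephb4 was not tested.

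Epha5, a receptor of class A ephrins expressed in neurons, stood at 6.68, 6.01, 6.37 and 5.97 on the null-labelled arrays and at 5.55, 4.50, 5.98 and 5.84 on the wildtype-labelled arrays (ILMN_2433635). The groups overlapped by a narrow margin, since null-labelled replicate 4 lay just below wildtype-labelled replicate 3. It was detected on all 4 null-labelled and 3 of 4 wildtype-labelled arrays. The difference of 0.79 ± 0.31 (SE) did not pass (adjusted p = 0.186) and was 0.47 without wildtype-labelled replicate 2. Its second probe (ILMN_1237026) differed by 0.58 ± 0.20 (adjusted p = 0.160).

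Epha3, a receptor of ephrin-A5 present in somite-derived mesenchyme, was set apart by 1 array. By its brightest probe (ILMN_2831656) it stood at 11.74, 11.12, 11.33 and 11.39 on the null-labelled arrays, and at 11.55, 8.98, 11.64 and 11.45 on the wildtype-labelled arrays. Wildtype-labelled replicate 2 thus lay far below the other 7 arrays. The other probes of Epha3 read 6.05 and 5.64 on that array, against 7.87 to 8.48 and 7.69 to 8.16 on the other wildtype-labelled arrays. The difference of the brightest probe was 0.49 with all arrays (adjusted p = 0.599) and -0.15 without wildtype-labelled replicate 2 (adjusted p = 0.596). Epha3 is named here after its values were seen.

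Epha7, also a receptor of class A ephrins, had overlapping levels in the groups, with 11.65 to 11.95 in null-labelled cells and 11.84 to 12.05 in wildtype-labelled cells. Its difference of -0.08 had a 95% interval of -0.34 to 0.17. Under scaling by the median absolute deviation, which lowered bright probes most, the difference was -1.26. Its other 3 probes differed by -0.36, -0.09 and 0.21, the last by -0.05 without wildtype-labelled replicate 2. Ephb3 differed by -0.09 ± 0.16 (SE), and by 0.17 under median centring. Epha4, a receptor that binds ephrins of both classes and is known for guiding motor axons, lay at the edge of detection, on 3 null-labelled and 0 wildtype-labelled arrays. Its levels were 4.60, 5.05, 4.96 and 5.03 on the null-labelled arrays and 4.63, 4.34, 4.69 and 4.42 on the wildtype-labelled arrays. That is at least 1.01-fold higher in null-labelled cells, a bound that sets the null-labelled mean against the wildtype-labelled mean of, per array, the dimmest detected signal or the reading of the probe itself, whichever was higher.

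Of the 6 measured ephrins, 3 had a difference above 0 and 3 below with quantile normalization. Efnb1, an ephrin of class B that acts both as ligand and as receptor and is known from the patterning of somites and the skeleton, rose. Its levels were 10.75, 10.86, 11.04 and 10.97 on null-labelled replicates 1 to 4, and 10.31, 10.14, 10.29 and 10.41 on wildtype-labelled replicates 1 to 4 (ILMN_2698443). The lowest null-labelled array lay above the highest wildtype-labelled array. The difference was 0.62 ± 0.12 (SE, n = 4 each, 1.54-fold, limma, adjusted p = 0.0483). In the deposited intensities null-labelled replicate 1 read 1230, within the range of 904 to 1290 on the wildtype-labelled arrays, and the other null-labelled arrays read 2370 to 2560. Replicate 1 was thus separate from the wildtype-labelled arrays only after normalization.

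The call of Efnb1 lay close to the threshold. Its adjusted p was 0.00836 without null-labelled replicate 1 and 0.0717 to 0.166 when any other single array was left out, while the difference stayed between 0.57 and 0.67. Under scaling by the median absolute deviation it was -0.24. That scaling lowered bright probes most, so the median probe (-0.26) is no reference for Efnb1. A probe of Ephb4 of similar level (ILMN_1230479, 10.65 to 10.95) moved from -0.06 to -0.97 under it.

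The other ephrins of class B had lower levels in null-labelled cells, without a call. Efnb3, a midline repellent of the spinal cord, stood at 6.65, 6.18, 6.46 and 6.09 in null-labelled cells and at 6.73, 6.65, 6.70 and 6.64 in wildtype-labelled cells. Null-labelled replicate 1 reached the wildtype-labelled range and the other 3 null-labelled arrays lay below it. The difference was -0.34 ± 0.14 (SE, adjusted p = 0.205) and -0.44 without null-labelled replicate 1 (adjusted p = 0.0393). Efnb2, the arterial partner of Ephb4, differed by -0.31 ± 0.17 (adjusted p = 0.319), with 10.24 to 10.58 on the null-labelled arrays, against 10.48 to 11.18 on the wildtype-labelled arrays, and by -0.14 without wildtype-labelled replicate 1.

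Efna4, a lipid-anchored ephrin, was the lowest-ranked of the class A ligands by difference. Its brighter probe (ILMN_2691352) stood at 7.58, 7.30, 7.36 and 7.33 on the null-labelled arrays and at 7.72, 7.76, 7.78 and 7.88 on the wildtype-labelled arrays. The groups did not overlap, and the difference was -0.39 ± 0.11 (SE, adjusted p = 0.113, or 0.0194 without null-labelled replicate 1). Its other probe (ILMN_1217493) pointed the other way, at 0.16 ± 0.19. Efna5, the ligand of Epha3, had 12.38 to 12.52 in null-labelled cells and 12.13 to 12.39 in wildtype-labelled cells, a difference of 0.19 ± 0.11 (adjusted p = 0.347). Efna1 differed by 0.22 ± 0.18.

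The measured semaphorins, which are ligands, included none called. Of 7, only Sema3e had a difference above 0 with quantile normalization (0.06 ± 0.17, or -0.05 without wildtype-labelled replicate 2), and 1 of the 7, Sema3f, differed by less than 0.01. Sema3a, a secreted repellent of sensory and motor axons, stood at 10.64, 10.01, 10.06 and 9.97 in null-labelled cells and at 10.85, 10.39, 10.76 and 10.57 in wildtype-labelled cells. Null-labelled replicate 1 lay within the wildtype-labelled range and the other 3 null-labelled arrays below it. The difference was -0.48 ± 0.17 (SE, adjusted p = 0.170), or -0.63 without null-labelled replicate 1 (adjusted p = 0.0189).

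Sema3c, a secreted semaphorin of vessels and neural crest, had lower values in null-labelled cells by both of its probes. The brighter (ILMN_2673323) stood at 7.62, 7.93, 7.74 and 8.0, against 8.27, 8.24, 8.16 and 7.94 in wildtype-labelled cells. The groups overlapped at wildtype-labelled replicate 4, and the difference was -0.33 ± 0.13 (SE, adjusted p = 0.194). The dimmer probe (ILMN_1238568) stood at 6.20, 4.87, 6.35 and 5.12 in null-labelled cells, where 3 of 4 arrays detected it, and at 7.40, 8.06, 6.44 and 6.36 in wildtype-labelled cells. Its groups did not overlap, but both spread widely, and the difference of -1.43 ± 0.44 (2.69-fold lower) did not pass (adjusted p = 0.131).

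Sema6a, a transmembrane semaphorin, had 8.20 to 8.41 in null-labelled cells and 8.40 to 8.69 in wildtype-labelled cells. Its difference was -0.26 ± 0.11 (SE, adjusted p = 0.223) and turned to 0.04 under median centring, where the median probe stood at 0.19. Its other probes differed by -0.37 and -0.11. Sema3f had 11.30 to 11.54 in null-labelled cells and 11.31 to 11.55 in wildtype-labelled cells, and its 95% interval reached from -0.25 to 0.25, but under scaling by the median absolute deviation it differed by -1.06. The 2 measured probes of Sema5a disagreed in sign, at -0.23 ± 0.24 and 0.37 ± 0.24, and Sema6d differed by -0.05 ± 0.14.

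Among the receptors of semaphorins, Nrp1, which serves class 3 semaphorins and vascular endothelial growth factor, had higher values in null-labelled cells by all 3 of its probes, without a call. Its brightest probe (ILMN_1237197) stood at 11.17 to 11.54 in null-labelled cells and at 10.61 to 11.17 in wildtype-labelled cells. Null-labelled replicate 3 and wildtype-labelled replicate 1 nearly met. The difference was 0.41 ± 0.15 (SE, adjusted p = 0.167). The second probe (ILMN_2669912) was cleanly separated, at 10.98, 11.12, 10.96 and 11.23 in null-labelled cells, against 10.66, 10.35, 10.62 and 10.44 in wildtype-labelled cells. Its difference of 0.55 ± 0.12 was the nearest of the 3 to the threshold (adjusted p = 0.0700, or 0.0199 without null-labelled replicate 1), but was -0.33 under scaling by the median absolute deviation. Nrp2, the other neuropilin, differed by 0.08 ± 0.17, or by -0.09 without wildtype-labelled replicate 2.

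The plexins transmit the semaphorin signal into the cell. Plxnd1, the endothelial plexin that also reads Sema3e directly, was separated by genotype on 1 of its 2 measured probes. That probe (ILMN_2550095) stood at 5.45, 6.30, 6.05 and 6.44 in null-labelled cells and at 5.02, 5.06, 5.24 and 5.31 in wildtype-labelled cells. All null-labelled arrays were above all wildtype-labelled arrays, with null-labelled replicate 1 the nearest to them. The difference was 0.90 ± 0.20 (SE, adjusted p = 0.0748, or 0.00340 without null-labelled replicate 1). The brighter probe (ILMN_1214608) differed by 0.14 ± 0.15 (adjusted p = 0.586), and Plxnd1 is named here after its values were seen. The remaining plexins differed by -0.30 ± 0.15 (Plxna2, adjusted p = 0.263), 0.05 ± 0.15 (Plxna3), 0.11 ± 0.19 (Plxnb1) and 0.11 ± 0.11 (Plxnb2).

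In the Slit and Robo family, all 5 measured probes of Robo2, a receptor of Slits that mediates repulsion at the midline, had lower values in null-labelled cells, and 1 was called. The called probe (ILMN_2619401) stood at 6.08, 6.14, 6.33 and 5.76 on null-labelled replicates 1 to 4 and at 7.18, 6.60, 7.33 and 7.12 on wildtype-labelled replicates 1 to 4. The groups did not overlap. The difference was -0.97 ± 0.18 (SE, n = 4 each, 1.96-fold lower, limma, adjusted p = 0.0483).

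The brightest probe of Robo2 (ILMN_1227705) stood at 7.95, 7.89, 7.99 and 7.80 in null-labelled cells and at 8.28, 8.18, 8.67 and 8.52 in wildtype-labelled cells, again without overlap, and differed by -0.51 ± 0.13 (1.42-fold lower, adjusted p = 0.0940). Of the other probes, ILMN_2567532 differed by -0.85 ± 0.24 (adjusted p = 0.111), ILMN_1233193 by -0.45 ± 0.11 (adjusted p = 0.0893) and ILMN_1222581 by -0.39 ± 0.21 (adjusted p = 0.303). Only the last overlapped between groups, through wildtype-labelled replicate 2. Without null-labelled replicate 1, where 16% of all probes were called, 3 more probes of Robo2 passed. The adjusted p was then 0.0412 for ILMN_1227705, 0.0499 for ILMN_2567532 and 0.0288 for ILMN_1233193 (limma). All 5 stayed below 0 under median centring and under scaling by the median absolute deviation. The latter moved the median probe to -0.26, and most differences of the set were below 0 with it. Relative to that median the 5 stood at -0.77 to -0.09, with ILMN_1233193 at -0.15 and ILMN_1222581 at -0.09. In the deposited intensities the called probe overlapped, with 38.7 to 80.0 on the null-labelled arrays and 62.8 to 134 on the wildtype-labelled arrays. Its adjusted p was 0.0194 without null-labelled replicate 1, 0.0197 without wildtype-labelled replicate 2 and 0.0818 to 0.151 without any other single array. On that array, wildtype-labelled replicate 2, Robo2 was lower than in the rest of its group, so leaving it out widened the difference to -1.13.

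**Figure D3:**
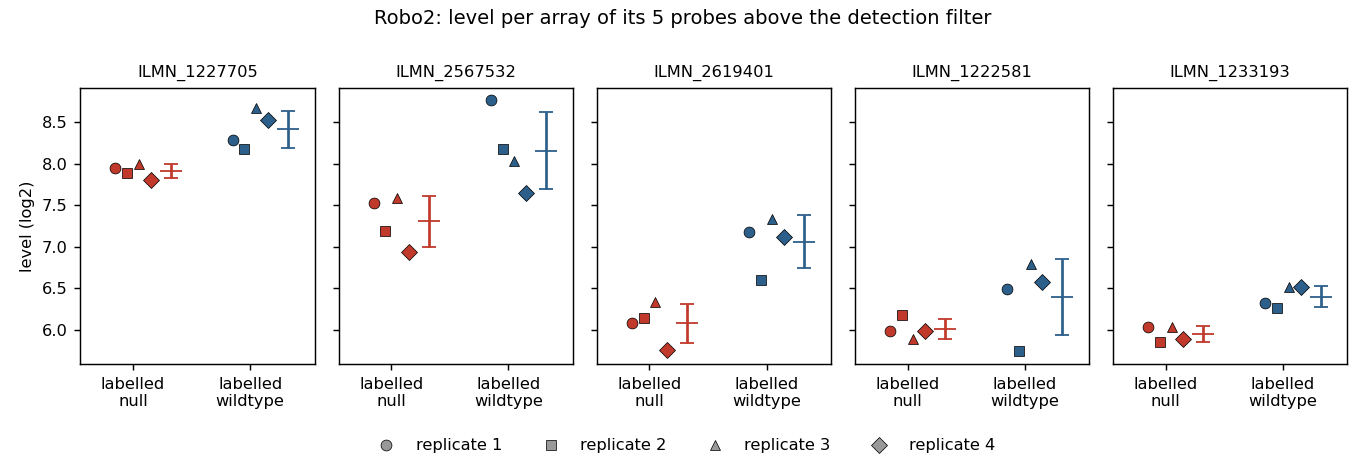
Level (log2, vertical axis) of the 5 measured probes of Robo2 on each array, null-labelled arrays at left in red and wildtype-labelled arrays at right in blue, with a marker shape per replicate and bars for mean and SD (n = 4 each). The groups are separate for every probe except ILMN_1222581, in which wildtype-labelled replicate 2 (5.74) lies below the null-labelled arrays.

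Robo1, the other measured Robo receptor, and the ligand Slit2 had no separation by genotype. Robo1 stood at 11.83, 11.83, 11.80 and 12.05 in null-labelled cells and at 11.90, 10.74, 12.03 and 11.63 in wildtype-labelled cells (0.30 ± 0.25, SE, adjusted p = 0.495). Slit2 stood at 11.02, 10.87, 10.62 and 10.66 in null-labelled cells and at 11.09, 9.50, 10.94 and 10.69 in wildtype-labelled cells (0.24 ± 0.31, adjusted p = 0.662). As for Epha3, wildtype-labelled replicate 2 was the lowest array of both, and without it the differences were 0.03 for Robo1 and -0.11 for Slit2. Slit3 differed by 0.27 ± 0.13 (adjusted p = 0.251), and Slit1 was detected on 0 arrays.

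**Figure D4:**
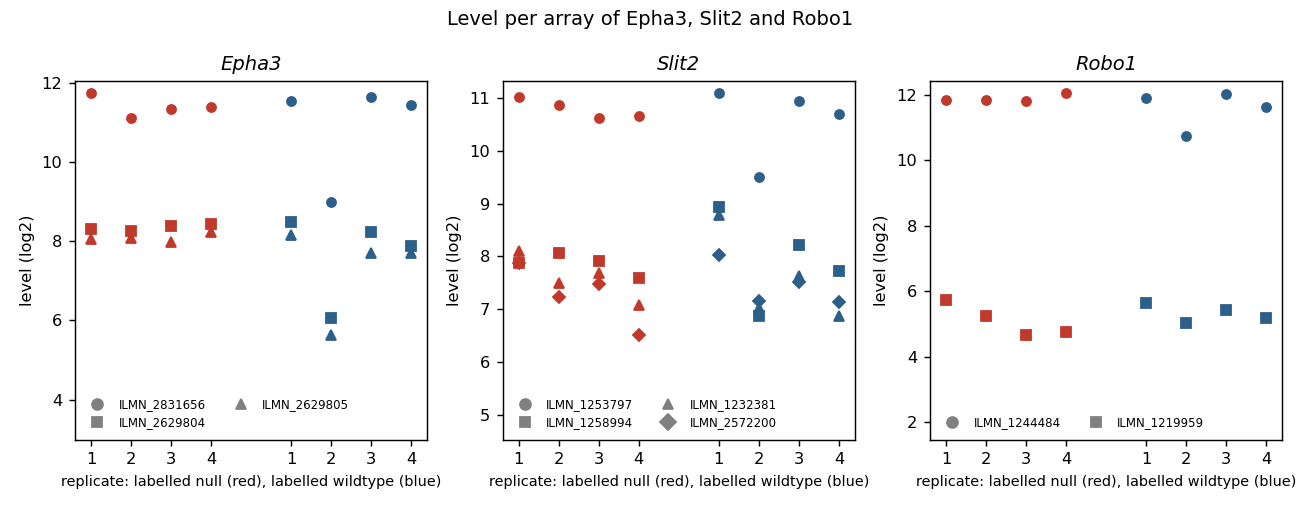
Level (log2, vertical axis) of the measured probes of Epha3, Slit2 and Robo1 by array (horizontal axis: replicate, null-labelled in red at left, wildtype-labelled in blue at right), with a marker shape per probe. Wildtype-labelled replicate 2 is the lowest array for all 3 probes of Epha3 and for the brightest probes of Slit2 (9.50) and Robo1 (10.74).

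Netrin receptors showed no call. Neo1, which encodes neogenin, a receptor of netrins and of repulsive guidance molecules, stood at 11.54, 11.70, 11.65 and 11.82 in null-labelled cells and at 11.29, 10.97, 11.34 and 11.12 in wildtype-labelled cells by its brightest probe (ILMN_2610156). The groups did not overlap, and the difference was 0.49 ± 0.12 (SE, adjusted p = 0.0887, or 0.0253 without null-labelled replicate 1), but -0.55 under scaling by the median absolute deviation. Its other 3 probes differed by -0.04, -0.06 and -0.05. Rgma, a membrane-anchored ligand of neogenin, differed by -0.01 ± 0.16 (-1.0 under scaling by the median absolute deviation, 0.02 without wildtype-labelled replicate 2), with 10.97 to 11.70 in null-labelled cells and 11.15 to 11.32 in wildtype-labelled cells. Unc5c, a repulsive netrin receptor, differed by 0.09, 0.20 and 0.10 by 3 probes and by -0.43 ± 0.14 by ILMN_2558487 (adjusted p = 0.133), on which the groups did not overlap. Without wildtype-labelled replicate 2, the probe at 0.10 (ILMN_1231621) stood at -0.11. Unc5b differed by -0.03 ± 0.30, or by 0.31 without wildtype-labelled replicate 2 and 0.03 without null-labelled replicate 1. Dcc, the attractive netrin receptor of commissural neurons, was detected on 2 null-labelled and 0 wildtype-labelled arrays.

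Probes of 1 gene often disagreed. Of the 18 genes with several measured probes, 8 had probes of opposite sign: Epha7, Ephb4, Efna4, Sema5a, Slit2, Robo1, Unc5c and Neo1. Sema3f is among the 18 but was counted neither as of opposite sign nor as of 1 sign, since its probes differed by less than 0.01 and by 0.17. The sources used here do not place the probes in exons. The probes of Robo2 and of Nrp1 each had 1 sign over all of their measured probes with quantile normalization, as did those of Sema6a, Sema3c, Epha3, Epha5, Efna5, Plxnd1 and Slit3.

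**Figure D5:**
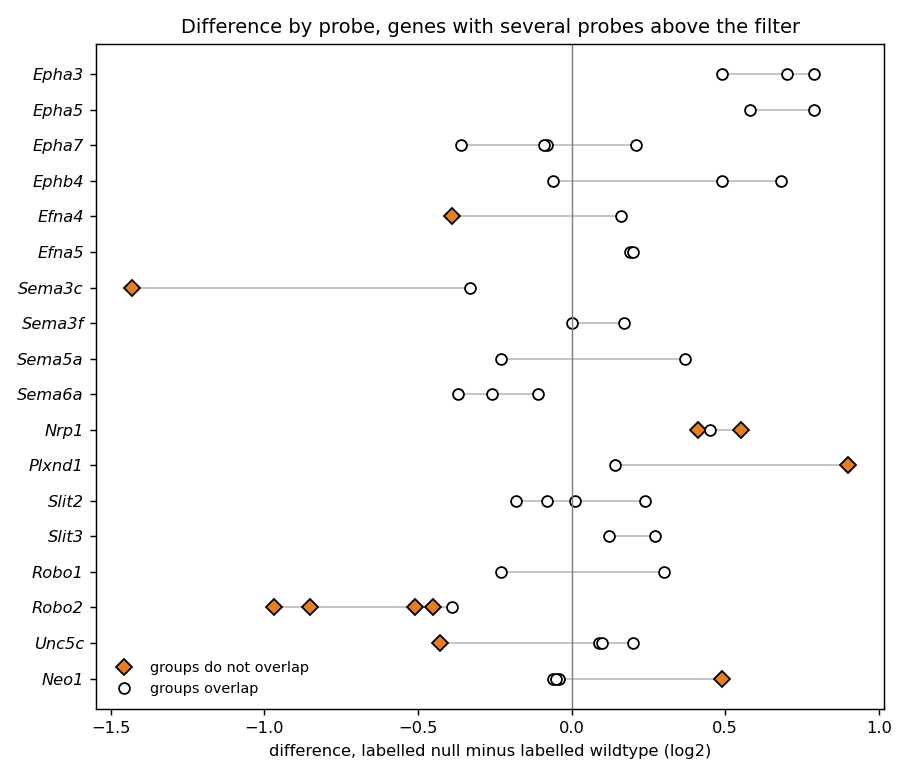
Difference in level (log2, null-labelled minus wildtype-labelled arrays, horizontal axis) of every measured probe of the 18 genes with several measured probes (1 row per gene), where orange diamonds mark probes whose groups do not overlap. The 5 probes of Robo2 lie between -0.97 and -0.39, whereas for Neo1 1 probe stands at 0.49 and the others at -0.06 to -0.04.

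Other genes of the pathway included none that was called, against 0.781% of all probes. Of 28 further family members 14 were measured and 0 were called (limma, 5 at an unadjusted p under 0.05, against 21.7% of all probes), with a median difference of 0.25. Robo4, an endothelial Robo, stood at 7.16, 6.87, 6.16 and 6.32 in null-labelled cells and at 4.95, 4.41, 6.14 and 5.93 in wildtype-labelled cells (1.27 ± 0.38, SE, adjusted p = 0.124). Ephb6, a kinase-dead Eph receptor, differed by -0.49 ± 0.13 (adjusted p = 0.0941). Of 49 partners in the cytoplasm and membrane 34 were measured and 0 were called (limma, 9 at an unadjusted p under 0.05, against the same 21.7%), with a median of 0.12. Cdc42, a small GTPase that acts on the actin skeleton of growth cones, differed by 0.87 ± 0.18 (adjusted p = 0.0615), and Crmp1, a phosphoprotein of semaphorin signalling, by 1.0 ± 0.24 (adjusted p = 0.0814).

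Promoters of the set were searched for the core motif known for Bapx1, TAAGTG or TGAGTG on either strand, in windows of 250 bases before to 50 bases after each start in RefSeq (GRCm38.p6). Of 38 genes of the set with a promoter in that table, 11 held the motif (28.9%), against 26.8% of all 27025 genes. It was not in the windows of Efnb1, Robo2, Ephb1, Nrp1 or Neo1. Sequence outside the windows was not searched, so its absence there does not speak to sites farther from the start. The stretches below are those of the named genes Sema3a, Epha5 and Epha7, in the direction of the gene, with the motif or its reverse complement in capitals. They lie at chr5:13396683-13396712 (plus strand, motif at position -89 from the start of Sema3a), chr5:84417547-84417576 and chr5:84417482-84417511 (minus strand, -182 and -117 from the start of Epha5) and chr4:28813061-28813090 (plus strand, -58 and -72 from its annotated starts in Epha7). A match is a string of letters and no measure of binding.
Sema3a: gaagcctgtgatCACTCAccagtggcagcg
Epha5 first: accgctaggcaaCACTCAccacggcagcct
Epha5 second: ttaagcgagtcaCACTTAcagtagcttgtc
Epha7: ggctgcggctgcCACTCAgtcggagtggcg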

How the data were processed

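RNA of sorted EGFP-positive cells was hybridized to Illumina MouseWG-6 BeadChips, 4 arrays per genotype. The authors took probe intensity, with background subtracted, out of GenomeStudio (its version is not stated). In the deposited table, intensity is on a linear scale (5.6 to 10.1 at the median of an array, 28% to 31.4% below 0) next to a detection p-value that runs towards 1 for bright probes and was therefore subtracted from 1. A second deposited table holds log2 values from which a baseline per probe, of unstated origin, is removed. The first table names probes by address only, so addresses were matched by their values to the identifiers of the second table: 35665 of 45281 (78.76%) matched uniquely within 0.001. The set had 120 annotated probes, 102 of them matched. Of the 8 arrays 7 were shared by both tables; in the second table null 2, 3 and 4 are null 1, 2 and 3 of the first, whose numbers are used in the text. Gene names came from the platform annotation, updated through GRCm38.p6.

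Intensities were corrected by normexp with detection p (offset 16), quantile-normalized and taken to log2, which understates fold changes of dim probes (limma 3.58.1, R 4.3.3, statmod 1.5.0; Python 3.11.15, pandas 2.3.3, scipy 1.17.1). Testing was limited to the 19965 probes detected (p under 0.05) on 4 or more of the 8 arrays, by lmFit and eBayes with Benjamini-Hochberg adjustment at 0.05. The fit was tested on simulated data with independent noise of the same spread on every array, a test that does not cover arrays that stand apart. Median absolute deviation scaling and analysis of variance, both named in the study's methods, were run as alternatives, with a floor of 16 in place of normexp, median centring, other detection filters, array weights, the replicate number as a block, the log2 table and leaving out each array. The number of arrays limits the precision.

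Genes were named if a probe was called, if the representative probe had an unadjusted p under 0.05, if detected on 0 arrays of one genotype and at least 3 of the other, or if among the 2 of highest mean level in their family; Nrp1 is named by the study. Other measured genes are given more briefly, and where described at length were chosen after their values were seen. The set, the lists, the rule and the tests were chosen with earlier results of these data known, and leaving out both arrays that stand apart was added after seeing the data.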

Additional observations from a re-analysis of the deposited data

Results flagged for a closer look

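Of 134 groups of 4 arrays over the measured probes of the set, 12 had 1 array far from the other 3 by Dixon's criterion at 95%, where chance flags about 1 in 20, and in 6 of the 12 it was null-labelled replicate 1. That array read 5.93 for Epha5 (ILMN_1237026, others 5.36 to 5.43), 8.03 for Epha7 (ILMN_1228560, others 7.31 to 7.39) and 10.64 for Sema3a (others 9.97 to 10.06). It read 10.71 and 6.35 for the 2 probes of Ephb4 that differed between genotypes (others 11.34 to 11.35 and 7.04 to 7.14), and 5.42 for Plxnb1 (others 6.13 to 6.20). Wildtype-labelled replicate 2 was low for Epha3 (8.98, others 11.45 to 11.64) and for Nrp2 (9.33, others 9.95 to 10.02). The remaining 4 were null-labelled replicate 4 of Robo1 (12.05, others 11.80 to 11.83), wildtype-labelled replicate 3 of Ephb3 (5.91, others 6.20 to 6.25), wildtype-labelled replicate 1 of Efnb2 (11.18, others 10.48 to 10.52) and wildtype-labelled replicate 4 of Sema6d (6.85, others 6.66 to 6.68). The cause was not tested.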

How the results depend on the processing

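The number of genes of the set called was 1 of 34 in the main analysis. It was 2 when any probe of a gene counted, and 0 with a floor of 16 in place of normexp, median centring, scaling by the median absolute deviation, the authors' log2 table, the analysis of variance and the replicate block. With array weights 11 of 34 genes were called, against 6190 of all 19965 probes tested. The number of genes called ranged from 0 to 8 with single arrays left out and was 8 without both arrays that stand apart. The 8 stood against 16% and 20.3% of all probes. Over the whole array 156 probes were called, 77 higher and 79 lower; the count was 99 with the floor, 109 (87 higher, 22 lower) with median centring, 1 with the median absolute deviation, 75 without a filter, 6190 with array weights, 20 with the replicate block, 16 with the log2 table and 12 with the analysis of variance. It ranged from 21 to 3185 with single arrays left out and was 4048 without both. The log2 table holds 1 null-labelled array absent from the intensity table and lacks null-labelled replicate 4 of that table. Its counts thus change samples as well as processing. Other genes of the pathway had 0 calls, 1 with median centring and 0 to 9 with single arrays left out. The 9 came without null-labelled replicate 1, where 16% of all probes were called. Of 681 recomputed differences of 36 probes, 587 kept sign and side of the threshold, 25 lost and 42 gained a call, and 27 changed sign. For Sema3f (ILMN_1248740), whose main difference rounds to 0, no change of sign was counted. Under scaling by the median absolute deviation, which moved the median probe to -0.26, differences turned to -0.24 (Efnb1), -0.48 (Ephb4), -0.56 and -0.33 (Nrp1), -0.55 (Neo1), -1.06 (Efna5), -0.78 (Robo1), -0.56 (Slit2), -0.40 (Epha3), -0.06 (Plxnd1), -0.42 (Slit3) and -0.64 (Unc5c). Those of Nrp2 (-0.62), Plxnb2 (-0.54) and Sema3e (-0.09) turned as well. Under median centring differences turned to 0.04 (Sema6a), 0.05 (Epha7), 0.18 (Rgma), 0.17 (Ephb3), 0.16 (Sema3f), 0.26 (Sema6d) and 0.14 (Unc5b). In the log2 table they turned to 0.03 (Ephb3), 0.08 (Sema6d), -0.02 (Nrp2) and -0.18 (Plxnb1), and Rgma stood at 0.0. With array weights Slit2 stood at -0.01 and Epha3 at -0.09. Leaving out 1 array gave -0.11 to 0.42 for Slit2, -0.15 to 0.74 for Epha3 and -0.16 to 0.08 for Rgma, and leaving out both gave -0.18 for Slit2 and -0.27 for Epha3. The replicate numbers did not pair the arrays (deviations of same-numbered arrays correlated at -0.20 to 0.04, and 1 of 8 arrays correlated best with its own number). The cause of these changes was not tested. A smaller difference of a dim probe is hidden by the offset, and 13 of 47 genes were not measured.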

Other observations

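The authors' log2 table holds 1 null-labelled array that matches no column of the intensity table. Against the mean of the wildtype-labelled arrays in that table it stood at 0.36 for Efnb1, 1.08 for Ephb1, -1.37 for the called probe of Robo2 and 0.32 for the brightest probe of Neo1, each outside the wildtype-labelled range. The 3 null-labelled arrays shared by both tables averaged 0.55, 1.28, -0.94 and 0.35 for the same probes. For the brightest probe of Ephb4 it stood at -0.07, within the wildtype-labelled range, where the shared null-labelled arrays averaged 0.36. The second probe of Ephb4 (ILMN_2973206) stood at -0.62 and Plxnb1 at -1.33 on it, both outside the wildtype-labelled range and opposite in sign to the shared null-labelled arrays, which averaged 0.86 and 0.21. Of the 67 measured probes 13 had opposite signs on that array and on the shared ones.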
